A study of Homo sapiens with 12 samples.

Results

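The genes described here are a block at the end of the short arm of chromosome 17, band 17p13, from DOC2B to CXCL16. They were chosen by name, because the block had lower ATAC-Seq counts on day 3 and on day 28 than in Mock cells, and 59 genes were named. OVCA2 has no entry under its symbol in the table of 52889 gene entries, so 58 members remained. All 58 passed the filter on low counts, among 27579 tested entries. In RefSeq they lie within chr17:142789-4739928 of GRCh38. The comparisons of d3 and d28 cells with Mock cells chose the block. Their values for the members, counts of calls included, are given as a description, and nothing is read from them as a test.

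The cells were HEK293T, a line of human embryonic kidney cells, and each group held 3 biological replicates. Mock cells carried the empty vector pSBTet-GP. The d0 cells carried a constitutive MLL-AF4 transgene, the first of the fusion proteins of the translocation t(4;11). The d3 cells carried constitutive MLL-AF4 plus an inducible AF4-MLL, the reciprocal fusion, which doxycycline at 1 µg/ml had switched on over 48 h. The d28 cells came from the same culture course, 25 days after doxycycline had been withdrawn, and their label gives constitutive MLL-AF4 alone. As a model, the MLL-AF4 cells were a population selected with puromycin and grown for several weeks, and blasticidin was added together with doxycycline. How Mock cells were selected and when they were taken is not given in the sources used here.

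ATAC-Seq cuts accessible DNA with a transposase, and the count of a gene entry is the number of sequenced fragments assigned to it. Such a count depends both on how open the chromatin is and on how many copies of the DNA a cell holds, and in these counts the number of copies and the accessibility per copy cannot be told apart. The distal part of 17p is known for Miller-Dieker syndrome, a brain malformation caused by a deletion that includes PAFAH1B1 and YWHAE. Losses of the arm are frequent in leukaemia and other cancers.

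Total counts per sample lay between 353430 and 3539937, and between 26.4% and 68.5% of them came from mitochondrially encoded genes, with the highest shares at d28. The members together had between 654 and 1869 counts per sample. Their mean normalized counts, that is counts scaled to a common library size by the TMM method, lay between 2.65 and 44.2, with a median of 19.5. Single members are therefore counted with large errors, and the sum over the block is known far more precisely. For 28 of the 58 members the RefSeq span overlaps that of another entry. ATAC-Seq reads carry no strand, so the reads of such neighbours cannot be told apart.

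A promoter window was found in RefSeq for 41 of the 58 members (70.7%). The most upstream start of each gene was used, and the 250 bases before it were searched on both strands for 3 motifs. The GC box was spelled GGGCGG. The second motif searched for was CCAAT. The TATA box was spelled TATAAA. No motif contains another. A GC box was found in 30 of the 41 windows (73.2%), against 42.2% of 27303 windows of the same length across the genome. The letters CCAAT were found in 14 (34.1%), against 33% of all windows, and a TATA box in 0, against 11.2%. The median GC content was 69.6% for the members and 57.6% for all windows, and the median number of CG dinucleotides was 26 against 10. The windows across the genome were not limited to tested genes or to the gene classes of the members, so the sets may differ in kind of gene. These are descriptions of the sequence and not sites of binding. The windows of WDR81, RPA1 and PELP1 are shown because these were the members that passed a test in a comparison that did not choose the block, and the window of CYB5D2 because its count on day 3 lay closest to Mock among the 3 members named for the smallest change. They are at chr17:1716273-1716522 (plus strand, WDR81), chr17:1829755-1830004 (plus strand, RPA1), chr17:4704138-4704387 (minus strand, PELP1) and chr17:4142918-4143167 (plus strand, CYB5D2) of GRCh38.p14. Each is printed 5′ to 3′ in the direction of its gene, and capitals mark the motifs named above.
WDR81: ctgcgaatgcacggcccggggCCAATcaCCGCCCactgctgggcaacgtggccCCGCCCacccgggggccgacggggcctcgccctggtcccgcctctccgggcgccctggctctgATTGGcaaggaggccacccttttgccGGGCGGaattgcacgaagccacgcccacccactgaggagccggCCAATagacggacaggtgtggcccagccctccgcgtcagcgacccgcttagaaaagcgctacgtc
RPA1: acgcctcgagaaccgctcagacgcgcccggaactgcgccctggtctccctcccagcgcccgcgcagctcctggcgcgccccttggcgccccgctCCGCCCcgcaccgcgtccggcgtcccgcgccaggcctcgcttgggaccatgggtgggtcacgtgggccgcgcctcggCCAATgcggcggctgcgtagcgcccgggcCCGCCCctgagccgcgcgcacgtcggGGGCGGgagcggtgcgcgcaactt
PELP1: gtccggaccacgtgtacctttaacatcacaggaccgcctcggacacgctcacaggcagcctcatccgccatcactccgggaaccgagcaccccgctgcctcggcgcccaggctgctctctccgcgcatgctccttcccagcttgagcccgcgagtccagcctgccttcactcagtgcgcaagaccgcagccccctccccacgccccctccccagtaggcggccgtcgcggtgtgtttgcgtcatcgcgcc
CYB5D2: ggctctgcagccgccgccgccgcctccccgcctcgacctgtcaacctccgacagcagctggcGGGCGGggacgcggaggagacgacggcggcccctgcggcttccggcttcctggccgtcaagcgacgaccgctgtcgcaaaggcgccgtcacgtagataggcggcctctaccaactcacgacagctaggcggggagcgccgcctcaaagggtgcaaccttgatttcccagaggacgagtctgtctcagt
The window of WDR81 holds 3 GC boxes and 3 matches to CCAAT, that of RPA1 holds 3 GC boxes and 1 such match, and that of CYB5D2 holds 1 GC box, while none of the motifs was found in that of PELP1. The RPA1 window overlaps that of SMYD4 on the other strand. With the 50 bases after each start included, the windows of 300 bases share 202 bases. Those of SMG6 and SRR share 257 bases, and those of SHPK and CTNS share 292. A motif in a shared stretch can be counted for both genes of a pair.

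Together the members made up a smaller share of the counts outside mitochondrially encoded genes in every cell population with MLL-AF4 than in Mock cells. The share was 0.287% to 0.304% in Mock, 0.235% to 0.247% in d0, 0.182% to 0.191% in d3 and 0.167% to 0.174% in d28 cells, with no overlap between any of the groups. For the Mock sample with the lowest total, replicate 3, the 95% Wilson interval ran from 0.283% to 0.326%, which covers counting error only. Relative to Mock the shares were 0.809 ± 0.0223 at d0, 0.632 ± 0.0145 at d3 and 0.576 ± 0.0109 at d28 (SD, n = 3 each). Nuclear copies of mitochondrial genes made up 2.37% to 2.51% of all counts in Mock, 3.81% to 4.16% at d0, 3.01% to 4.03% at d3 and 5.82% to 6.24% at d28. With these copies left out of the total as well, a choice made after seeing the data, the values were 0.842, 0.651 and 0.675.

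On the TMM scale, which was used for the single genes, the summed normalized count gave the same order of Mock, d0 and d3. Relative to the mean of Mock, the Mock replicates stood at 0.968, 1.01 and 1.03. The d0 replicates stood at 0.827, 0.840 and 0.864, with a mean of 0.844 ± 0.0185 (SD, n = 3). On day 3 the values were 0.691, 0.655 and 0.663, with a mean of 0.670 ± 0.0189 (SD, n = 3). All d3 replicates thus lay below all d0 replicates, which lay below all Mock replicates. On day 28 the values were 0.700, 0.679 and 0.677, with a mean of 0.685 ± 0.0133 (SD, n = 3), so the ranges of d3 and d28 overlapped. Whether d28 cells lay below or above d3 cells thus depended on the scale.

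**Figure D1:**
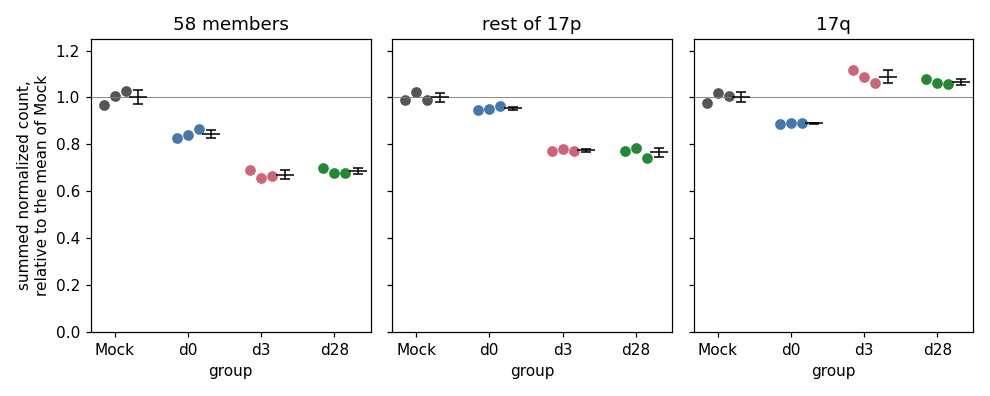
Summed normalized count of the 58 members, of the rest of 17p beyond CXCL16 (386 entries) and of 17q (1199 entries), tested or not, in each of the 12 samples. Values are relative to the mean of the 3 Mock samples. Points are replicates, and black marks give the mean and SD. The members stood at 0.670 (d3) and 0.685 (d28) of Mock, the rest of 17p at 0.774 and 0.766, and 17q at 1.09 and 1.07.

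Set against the counts of 17q in the same library, a scale added after seeing the data that needs no library size, the members were again lowest at d3 and d28. The reference itself moved, since the summed normalized count of 17q stood at 0.889 of Mock at d0, 1.09 at d3 and 1.07 at d28, and the ratios hold the change of both. The members had 7.10% to 7.32% of the 17q counts in Mock cells and 6.69% to 6.97% in d0 cells. They had 4.33% to 4.48% in d3 cells and 4.59% to 4.67% in d28 cells. Relative to Mock this is 0.949 ± 0.0202 at d0, 0.616 ± 0.0109 at d3 and 0.643 ± 0.00598 at d28 (SD, n = 3 each). The d3 and d28 ranges did not overlap on this scale, and the d0 cells, at 0.844 of Mock on the normalized scale, were at 0.949 when 17q, lower in these cells too, was the reference.

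The name of the block fits the data only in part, since the lower counts did not stop at CXCL16. In the remaining 289 tested genes of 17p, from ZMYND15 to the centromere, the median log2 fold change against Mock was -0.41 at d3 and -0.43 at d28. For the members it was -0.48 and -0.53, and for all 27579 tested entries 0.028 and 0.032. The first 59 tested entries beyond CXCL16 had medians of -0.43 and -0.36. In windows of 2 Mb along 17p, the median at d3 lay between -0.71 and -0.30 in all 11 windows, and at d28 between -0.56 and -0.23. On 17q, with 900 tested genes, the medians were 0.09 and 0.08. The block is thus better described as the outer end of an arm with lower counts, and no test was run on whether the members differed from the rest of 17p.

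**Figure D2:**
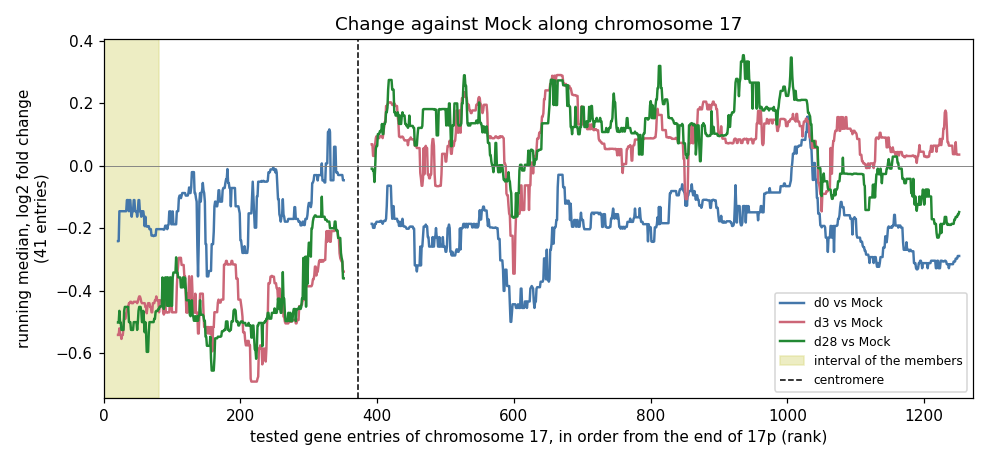
Running median over 41 tested entries of the log2 fold change against Mock along chromosome 17, in gene order from the end of 17p; the shaded interval holds the members and the dashed line marks the centromere. At d3 and d28 every window on 17p lay below 0 (from -0.69 to -0.20 and from -0.66 to -0.10). On 17q the windows ran from -0.35 to 0.29 and from -0.23 to 0.35, so the ranges of the arms overlapped. In d0 cells windows on both arms lay between -0.50 and 0.16.

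At the boundary, MED11, a subunit of the Mediator complex, had log2 fold changes of -0.35 (SE 0.24) at d3 and -0.71 (SE 0.25) at d28. CXCL16, a chemokine anchored in the membrane and the last member, had -0.95 (SE 0.43) and -1.11 (SE 0.43). Just outside, ZMYND15 had -0.60 (SE 0.69) and -0.46 (SE 0.67), TM4SF5 had -0.61 (SE 0.97) and -1.25 (SE 1.04), and GLTPD2 had -1.31 (SE 0.26) and -1.01 (SE 0.24). The members next to the boundary and the genes beyond it had values of the same sign. At the telomeric end, DOC2B, a calcium sensor of vesicle fusion, had -0.34 (SE 0.39) and -0.30 (SE 0.39), and RPH3AL, an effector of Rab GTPases in exocytosis, had -1.93 (SE 0.49) and -1.42 (SE 0.45).

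Inside the interval, 22 tested genes were not named as members, most of them with low counts. Their median log2 fold changes were -0.51 at d3 and -0.48 at d28, and 17 and 18 of the 22 were negative. MIR22HG, the host gene of a microRNA, had -0.26 (SE 0.26) and -0.30 (SE 0.26). The unnamed genes of the interval thus had medians like those of the members, with a wider spread.

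At d3, 52 of 58 members had a negative log2 fold change against Mock (all tested entries: 47.8%), and at d28 again 52 (all tested entries: 47.5%). In 29 members all 3 d3 samples lay below all 3 Mock samples, which held for 6.7% of all tested entries, and at d28 this was so for 24 members, against 7.79%. At an adjusted p below 0.05, 8 members were lower at d3 and 6 at d28, against 0.439% and 0.609% of all entries. The d3 count was 4, 1, 2 and 5 without Mock replicate 1, Mock replicate 2, Mock replicate 3 and d3 replicate 3, and the d28 count was 1, 3, 2 and 2 without Mock replicate 2, Mock replicate 3, d28 replicate 1 and d28 replicate 2. The block was chosen on these comparisons, so nothing is read from these counts.

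**Figure D3:**
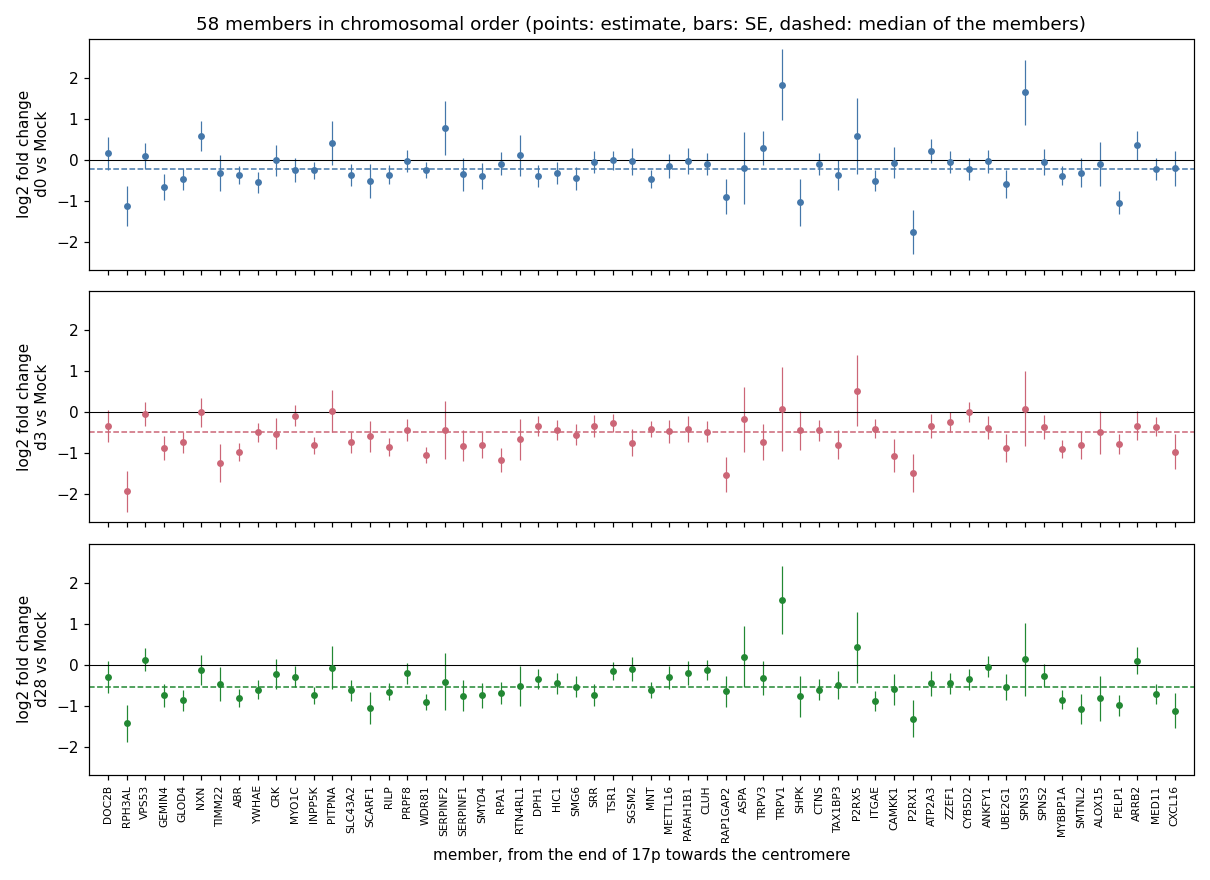
Log2 fold change against Mock of the 58 members in chromosomal order for d0, d3 and d28 cells; points are estimates, bars are SE and dashed lines the median of the members. The medians were -0.21, -0.48 and -0.53, and 46, 52 and 52 of the 58 points lay below 0.

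The SD of the members' log2 fold changes was 0.43 at d3 and 0.47 at d28, and 0.73 and 0.88 without Mock replicate 1. Squared deviations from the weighted mean, divided by the squared SE, averaged 1.32 and 1.26, where 1 would mean that members differed by no more than their own errors. For all tested entries the same measure was 1.63 and 2.20. Among the 29 members whose mean normalized count was 20 or more, 28 were negative at d3 and 28 at d28, and the SD was 0.30 and 0.29. Relative to their errors the spread of these 29 was not smaller than that of all members, with averages of 1.48 and 1.34. The exceptions among these 29 were CYB5D2 at d3, with 0.02 (SE 0.24), and VPS53 at d28, with 0.13 (SE 0.29).

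**Figure D4:**
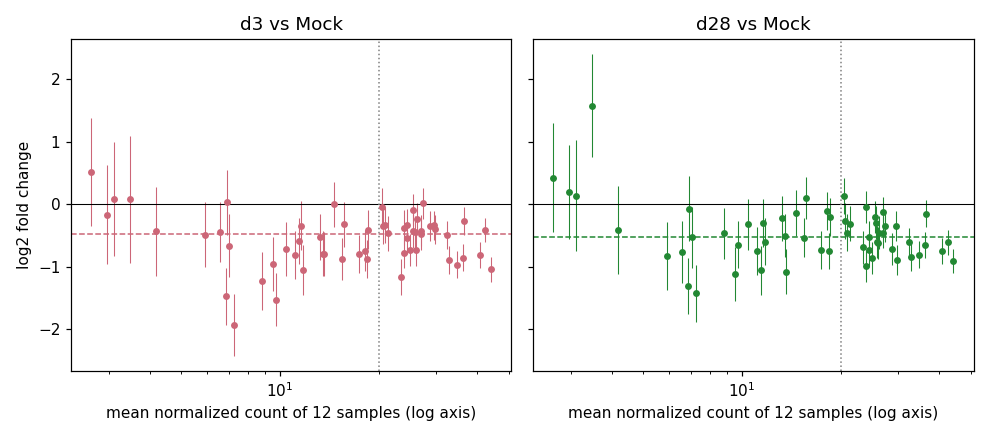
Log2 fold change against Mock of each member plotted against its mean normalized count over 12 samples (log axis), for d3 and d28; bars are SE, the dashed line is the median of the members and the dotted line a mean normalized count of 20. The SD was 0.43 and 0.47 over all 58 members and 0.30 and 0.29 over the 29 with a mean of at least 20, while the spread relative to the errors was 1.32 and 1.26 over all members and 1.48 and 1.34 over the 29.

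The segments of the block stood close to each other. The 20 distal members, from DOC2B to SERPINF1, stood at 0.628 ± 0.0336 of Mock at d3 and 0.654 ± 0.0184 at d28. The 19 tested middle members, from SMYD4 to CTNS, stood at 0.697 ± 0.0284 and 0.742 ± 0.0220. The 19 proximal members, from TAX1BP3 to CXCL16, stood at 0.694 ± 0.0240 and 0.663 ± 0.00991 (SD, n = 3 each). All segments were below Mock in all d3 and d28 samples, and the distal members had the lowest mean on both days. The Spearman correlation between the log2 fold change and the position in the block was 0.13 at d3 and -0.01 at d28 over 58 genes, which share the same libraries and are not independent. With the length of the gene, the correlation was 0.09 and 0.24.

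By role, the 12 members of membrane traffic and the cytoskeleton stood at 0.651 ± 0.0285 of Mock at d3 and 0.706 ± 0.0799 at d28 in summed normalized count, and 11 of 12 were negative on each day. WDR81, a protein of endosome maturation, was the member with the most counts. Its normalized counts were 59.9, 77.4 and 46.1 in Mock, 43.5, 46.8 and 68.6 in d0, 30.03, 31.7 and 30.1 in d3, and 39.6, 28.8 and 27.7 in d28 cells. All d3 and d28 values lay below all Mock and d0 values, with log2 fold changes against Mock of -1.03 (SE 0.20) and -0.90 (SE 0.19). RILP, which tethers late endosomes and lysosomes to dynein, had 47.9, 47.7 and 51.7 in Mock, 39.8, 34.04 and 40.1 in d0, 37.7, 20.5 and 22.2 in d3, and 33.2, 30.2 and 27.7 in d28 cells. The Mock values of RILP lay above those of all other samples.

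Members of the same role with values near Mock were MYO1C, an unconventional myosin, and VPS53, a subunit of a tethering complex at the Golgi. MYO1C had 25.4, 32.2 and 27.7 in Mock, 22.4, 15.6 and 33.7 in d0, 33.1, 25.7 and 22.2 in d3, and 22.2, 27.4 and 18.9 in d28 cells, and the groups overlapped. VPS53 had 17.96, 23.2 and 18.5 in Mock, 21.6, 19.7 and 17.4 in d3, and 25.9, 20.4 and 16.02 in d28 cells. PAFAH1B1, the dynein regulator whose loss causes lissencephaly, had 13.5, 24.5 and 24 in Mock, 13.1, 17.1 and 16.6 in d3, and 17.9, 19.7 and 14.6 in d28 cells, with log2 fold changes of -0.41 (SE 0.31) and -0.20 (SE 0.30). For all 3 genes the d3 and d28 values overlapped those of Mock.

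The 9 tested members for RNA, protein synthesis and DNA stood at 0.668 ± 0.0485 of Mock at d3 and 0.748 ± 0.0454 at d28, and all 9 were negative on both days. RPA1, the large subunit of the complex that coats single-stranded DNA, had 17.96, 32.2 and 44.3 in Mock, 36.1, 19.9 and 29.8 in d0, 16.9, 11.98 and 11.9 in d3, and 16.9, 20.4 and 21.8 in d28 cells. Its d3 values lay below all Mock and all d0 values, and its d28 values overlapped with those of both groups. MYBBP1A, a nucleolar protein that binds MYB, had 41.9, 45.1 and 51.7 in Mock, 39.8, 29.8 and 34.96 in d0, 25.4, 25.7 and 22.98 in d3, and 26.4, 23.9 and 26.2 in d28 cells. Here the d3 and d28 values lay below all d0 values, which lay below all Mock values. TSR1, a factor of ribosome maturation, had -0.27 (SE 0.22) at d3 and -0.15 (SE 0.22) at d28.

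The 6 transcription regulators stood at 0.720 ± 0.0258 of Mock at d3 and 0.642 ± 0.0533 at d28, and all 6 were negative on both days. PELP1, a coregulator of nuclear receptors, had 32.9, 43.8 and 33.2 in Mock, 18.7, 21.3 and 14.2 in d0, 27.7, 17.1 and 19.8 in d3, and 18.99, 16.9 and 21.8 in d28 cells. Its Mock values lay above those of all other samples. MNT, a MAX partner that opposes MYC, had log2 fold changes of -0.41 (SE 0.20) and -0.61 (SE 0.20). HIC1, a zinc finger repressor named for its hypermethylation in cancer, had -0.42 (SE 0.25) and -0.45 (SE 0.25). Both HIC1 values rest on Mock counts of 41.9, 34.8 and 20.3, a range that holds all d3 and d28 values.

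**Figure D5:**
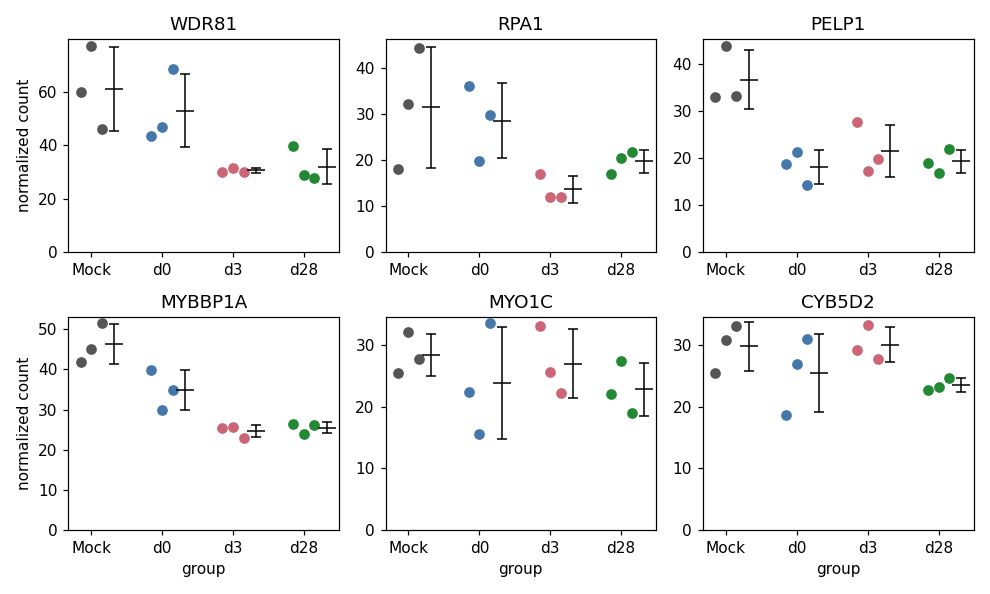
Normalized counts of 6 members in each sample by group; points are the 3 replicates, and black marks give the mean and SD. WDR81, RPA1 and MYBBP1A lie lower in d3 than in d0 cells in every replicate, PELP1 is lower in d0 cells than in Mock, and MYO1C and CYB5D2 overlap between Mock and d3 cells.

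The 10 signalling members stood at 0.603 ± 0.0382 of Mock at d3 and 0.676 ± 0.0304 at d28, and 9 of 10 were negative on each day. ABR, a regulator of small GTPases, had 55.4, 55.4 and 33.2 in Mock, 28.5, 23.96 and 22.98 in d3, and 32.7, 23.9 and 24.8 in d28 cells. INPP5K, an inositol phosphatase, had 64.4, 42.5 and 57.2 in Mock, 26.9, 29.96 and 35.7 in d3, and 32.2, 32.3 and 32.03 in d28 cells. For both genes all d3 and d28 values lay below all Mock values. YWHAE, a 14-3-3 protein and with PAFAH1B1 part of the Miller-Dieker interval, had -0.49 (SE 0.22) and -0.60 (SE 0.23), and the adaptor CRK had -0.52 (SE 0.38) and -0.22 (SE 0.36).

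The 12 receptors, channels and transporters stood at 0.687 ± 0.0272 at d3 and 0.646 ± 0.0491 at d28, with 9 of 12 negative on each day. SLC43A2, a transporter of neutral amino acids, had 41.9, 27.1 and 35.1 in Mock, 17.7, 20.5 and 23.8 in d3, and 18.99, 26.7 and 21.8 in d28 cells, again without overlap with Mock. ITGAE, an integrin alpha chain of intraepithelial lymphocytes, had -0.40 (SE 0.23) and -0.89 (SE 0.24). The positive values in this role at d28 came from TRPV1, P2RX5 and SPNS3, whose raw counts reached 0 in at least 1 Mock sample. TRPV1, the capsaicin receptor, had normalized counts of 4.49, 0 and 0 in Mock cells and 4.22, 4.92 and 5.82 in d28 cells.

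The 9 members of metabolism, mitochondria and secreted proteins stood at 0.731 ± 0.0243 at d3 and 0.654 ± 0.0238 at d28, with 8 of 9 negative on each day. GLOD4, a protein of the glyoxalase family, had 31.4, 37.4 and 35.1 in Mock, 19.2, 24.8 and 19.02 in d3, and 16.4, 21.8 and 20.4 in d28 cells, all below Mock. CYB5D2, a heme-binding protein also called neuferricin, had 25.4, 30.9 and 33.2 in Mock, 29.3, 33.4 and 27.7 in d3, and 22.7, 23.2 and 24.8 in d28 cells. Its d3 values overlapped Mock and its d28 values did not.

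The comparisons among the other groups were not used to choose the block, although they share samples with those that were. Between d0 and Mock cells, 46 of the 58 members had a negative log2 fold change (all tested entries: 50.1%), with a median of -0.21. The d0 cells differed from Mock cells by MLL-AF4 and by the vector, and possibly by selection and time in culture. These cannot be told apart here. In 11 members all d0 values lay below all Mock values, against 7.07% of all entries. At an adjusted p below 0.05 (edgeR quasi-likelihood test), 1 member was lower, against 0.196% of all entries. This was PELP1, with a log2 fold change of -1.04 (SE 0.29, adjusted p = 0.0472 by edgeR). The call was lost by edgeR under the replicate block (adjusted p = 0.0563) and in 10 of the 12 fits that left out 1 sample, whichever Mock, d0 or d28 replicate was left out and without d3 replicate 3, with adjusted p values by edgeR up to 0.437 (without Mock replicate 2). DESeq2 gave an adjusted p of 0.113. In d0 cells 17q had a median of -0.20 and the rest of 17p of -0.10, so the medians of both arms were negative at d0. Medians of the 23 chromosomes against Mock ran from -0.22 (chromosome 22, 73.1% of tested entries lower) to 0.15 (chromosome 4, 38.9% lower). Chromosome 19 had -0.20 (67.6% lower), so a d0 median like that of the members was not particular to the block.

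Between d3 and d0 cells, 48 of 58 members were negative (all tested entries: 48.3%), with a median of -0.38 against 0.024 for all entries. The d3 cells differed from d0 cells by induced AF4-MLL, but also by a further transfection, blasticidin, doxycycline and time in culture. No group had these without AF4-MLL, so they cannot be told apart. In 12 members all d3 values lay below all d0 values, against 7.12% of all entries. WDR81 and RPA1 passed the test, 2 members against 0.312% of all entries called lower. WDR81 had a log2 fold change of -0.79 (SE 0.20, adjusted p = 0.0183 by edgeR), and RPA1 had -1.07 (SE 0.28, adjusted p = 0.0247 by edgeR). Both kept this call under the replicate block, with adjusted p values by edgeR of 0.0212 and 0.0296. DESeq2 called neither (adjusted p = 0.0779 and 0.102). By edgeR, WDR81 lost the call without d0 replicate 3 (adjusted p = 0.389), d3 replicate 1 (0.0501) or d3 replicate 3 (0.0589). RPA1 lost it by edgeR without d0 replicate 1 (adjusted p = 0.295), d0 replicate 3 (0.119), d3 replicate 2 (0.109) or d3 replicate 3 (0.120). The rest of 17p had a median of -0.28 in this comparison and 17q of 0.27, so the medians of the arms lay on opposite sides of 0. Medians of whole chromosomes ran from -0.16 (chromosome 4) to 0.38 (chromosome 15). Chromosome 19 had 0.26, so a median like that of 17q was not particular to that arm.

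Between d28 and d0 cells, 50 of 58 members were negative (all tested entries: 46.9%), with a median of -0.25 against 0.036 for all entries. In 16 members all d28 values lay below all d0 values, against 7.97% of all entries. None passed the edgeR test at an adjusted p below 0.05 (all entries called lower: 0.667%). DESeq2 called 0 at the same adjusted threshold. The adjusted edgeR count was 1 without Mock replicate 1, d28 replicate 1 or any d3 replicate. At an unadjusted p below 0.05 there were 12 members by edgeR. The share of all entries at that threshold is not given here, so nothing is read from this count. The rest of 17p again had a negative median, of -0.25, and 17q had 0.25. Medians of whole chromosomes ran from -0.11 (chromosome 4) to 0.44 (chromosome 15), and chromosome 19 had 0.27.

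Between d28 and d3 cells, 25 days apart, 36 of 58 members were positive and 22 negative (all tested entries: 49.4% negative), with a median of 0.06. All d28 values lay above all d3 values in 4 members, against 6.79% of all entries, and below them in 2, against 7.51%. The edgeR test called 0 members (all entries: 0.37%), and DESeq2 called 0. By edgeR, 4 members had an unadjusted p below 0.05, and the share of all entries at that threshold is not given here. These counts do not show that the groups were equal, and the medians by segment were 0.09 for the distal, 0.13 for the middle and -0.09 for the proximal members.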

How the data were processed

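The authors made libraries from isolated nuclei with the Nextera transposase and deposited 1 table of whole-number counts per gene for 12 samples, without normalization. The submitters' processing notes name bcl2fastq, Bowtie2, HTSeq and GRCh38. The interval counted per gene, the shift of reads and the removal of duplicates are not given in the sources used here. Testing used edgeR 4.0.16 in R 4.3.3 (TMM factors, quasi-likelihood fit of all 12 samples, Benjamini-Hochberg adjustment over the 27579 entries whose mean normalized count exceeded 2 in any of the 4 groups). DESeq2 1.42.0, which the study names, was an alternative. Positions and promoters came from RefSeq (GRCh38.p14), where 34372 entries matched by symbol or unique synonym, with 17p up to 22 Mb and 17q from 27 Mb. The code was tested on simulated data. Replicates differed by more than sampling noise (chi-square per degree of freedom from 1.05 to 1.28).

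The members, their roles and all lists were chosen with earlier results of these data known. Named members were the 2 with the most counts in each role, the 3 lowest and 3 highest averages of the d3 and d28 changes among members averaging 20 normalized counts or more, members past a test that did not choose the block, the ends of the block with the first 3 tested genes beyond it, and the Miller-Dieker genes. TRPV1, P2RX5, SPNS3 and MIR22HG were named after their values were seen.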

Additional observations from a re-analysis of the deposited data

Results flagged for a closer look

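WDR81 and RPA1 were flagged because their change against Mock differed between d3 and d0 cells by an edgeR test of the difference itself. The d3 samples of this comparison also served to choose the block, so the test is not independent of that choice. The log2 fold change of d3 against d0 cells was -0.79 for WDR81 and -1.07 for RPA1. DESeq2 called neither (adjusted p = 0.0779 and 0.102). With 1 sample left out, the adjusted p by edgeR rose up to 0.389 for WDR81 and 0.295 for RPA1. The test was against 0, while the median of all members in this comparison was -0.38. Whether these genes differed from the rest of the block was not tested. Groups of 3 samples are too small for a search for single outlying samples, and none was made.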

How the results depend on the processing

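The median log2 fold change of the members stayed negative under all settings in every comparison except d28 against d3 cells, where it was 0.06 and became -0.94 with library sizes only and -0.024 without d28 replicate 1. For all entries the median of d28 against d3 was 0.0063 in the main fit. It was -0.98 with library sizes only and -0.0035 without d28 replicate 1. With library sizes only, the members' median minus that of all entries was 0.037, against 0.055 in the main fit. The cause of these changes was not tested. Under DESeq2 the medians of d3 against Mock and against d0 were -0.54 and -0.43. The members called fell to 0 for d0 against Mock and to 0 for d3 against d0. In this section, counts of members called at d3 and d28 against Mock are a description only, since these comparisons chose the block. With library sizes only, which leaves the mitochondrial share uncorrected and moves the median of all entries to -0.48 at d0, -0.37 at d3 and -1.34 at d28, the members' medians against Mock were -0.66, -0.84 and -1.89 with 11, 19 and 54 called. For d3 against d0, d28 against d0 and d28 against d3 they were then -0.30, -1.16 and -0.94 with 0, 51 and 40 called. Of all 30983 entries in this fit, 1411, 710 and 17907 were called in either direction at d0, d3 and d28 against Mock. In the other 3 comparisons, in the order above, 145, 12318 and 16126 were called. The medians of all entries there were 0.10, -0.88 and -0.98, so the member counts are not particular to the block. The call of PELP1 at d0 was lost (0 called) without mitochondrially encoded genes, without a filter and with only the 2 groups compared, whereas RLE factors, filterByExpr and only the 2 groups compared called 1 member in d28 against d0 cells.

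With filterByExpr the medians were -0.57 (d3 against Mock), -0.58 (d28 against Mock) and 0.12 (d28 against d3), and the SD 0.30 at d0 and 0.31 at d28. Without a filter they were -0.40 and -0.46 against Mock and -0.32 and -0.19 against d0 at d3 and d28, with 4, 1 and 0 called at d3 and d28 against Mock and d3 against d0. Of all 52889 entries, 328, 316 and 229 were called in these 3 comparisons. Among members averaging 20 counts or more the SD was 0.25, 0.30 and 0.29 at d0, d3 and d28, and the medians -0.60 for d28 against Mock and -0.28 for d3 against d0. The summed counts relative to Mock at d0, d3 and d28 were 0.619, 0.523 and 0.272 of all counts, 0.844, 0.670 and 0.685 on the TMM scale, 0.842, 0.651 and 0.675 without nuclear copies, and 0.949, 0.616 and 0.643 of 17q counts.

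Leaving out 1 sample at a time, the medians ran from -0.27 to -0.17 (d0), -0.63 to -0.46 (d3) and -0.55 to -0.45 (d28) against Mock, from -0.45 to -0.32 for d3 and -0.30 to -0.23 for d28 against d0, and from -0.024 (without d28 replicate 1) to 0.12 for d28 against d3. The SD ran from 0.53 to 0.90, 0.42 to 0.73 and 0.43 to 0.88 against Mock, from 0.42 to 0.56 and 0.34 to 0.49 against d0, and from 0.35 to 0.48 for d28 against d3. The members called ran from 0 to 1, 1 to 8 and 1 to 7 against Mock, from 0 to 2 and 0 to 1 against d0, and stayed at 0 for d28 against d3. Over all tested entries the calls ran from 109 to 171, 187 to 361 and 217 to 417 against Mock. They ran from 100 to 264 and 164 to 409 against d0, and from 76 to 103 for d28 against d3. Summed counts of the members ran from 0.796 to 0.819, 0.622 to 0.640 and 0.568 to 0.584. Correlations of deviations between same-numbered samples ran from -0.15 to 0.08 and thus showed no pairing by replicate number. With deviations that are mostly counting error, such correlations cannot exclude pairing. The replicate block left 0 members called at d0 against Mock and moved no other count by over 1.5 times. The promoter GC correction, with and without the replicate block, was not run because only 70.7% of the members have a promoter window.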
